A study of Mus musculus with 24 samples.

Results

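The liver endothelial genes examined here are 37 genes that are used to recognise the endothelial cells of the liver. They were chosen by symbol from a fixed list, and all 37 were found among the 13686 genes of the count table. All 37 also passed the filter on low counts, which left 11971 genes for testing. The libraries came from whole livers of male wild-type C57BL/6 mice, made with a QuantSeq kit that reads the 3′ ends of polyadenylated transcripts. For 6 weeks the mice ate chow (n = 6 libraries) or a diet enriched in cottonseed oil (CSO, n = 6), olive oil (OO, n = 6) or safflower oil (SFO, n = 5). The labels name 24 samples, and the submitters left out the fourth SFO sample as an extreme outlier with possible contamination, so 23 libraries were analysed. The labels do not say that each library is a different mouse, and p-values therefore describe only how much these libraries vary, which may be partly technical.

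Most endothelial cells of the liver line the sinusoids, the narrow channels between plates of hepatocytes. These cells lack a continuous basement membrane, carry open pores called fenestrae, and remove waste proteins and small immune complexes from blood with endocytic receptors. Other endothelial cells line the portal and central veins, and those near the central vein secrete Wnt ligands that set the pericentral gene program of neighbouring hepatocytes. Vascular endothelial growth factor (VEGF) receptors, angiopoietin receptors and transcription factors of the GATA and ETS families maintain endothelial identity.

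Libraries held between 5428649 and 14930305 counts. Levels are given as CPM (counts scaled to 1000000 per library) after correction for library composition, and fold changes as log2 values, for which 1 is a doubling. A gene was called when its p in edgeR's quasi-likelihood test, adjusted over all 11971 genes, was under 0.05. The 3′ tags were not scaled by transcript length, and CPM values were mainly compared between libraries. Between genes they were used only for sums, for a gene's part in a sum and to pick the gene of highest mean CPM. In 4 libraries (Chow 3, Chow 4, Chow 5 and CSO 1) 8 skeletal muscle genes summed to between 469 and 2047 CPM, against at most 63.7 CPM in the other 19. The endothelial genes summed to between 892 and 1099 CPM in those 4 libraries. All 8 muscle genes were called lower in OO against chow, with a median log2 fold change of -7.49.

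Promoter sequence is shown for Egfl7 and Mrc1, which had among the smallest p-values in OO and SFO respectively and hold several copies of a motif bound by ETS factors. RefSeq promoters on GRCm38.p6 were matched for 19 of the 37 genes. The 250 bases before each start site were searched on both strands for AGGAAG, whose reverse complement is CTTCCT, and for AGATAA, a motif bound by GATA factors whose reverse complement is TTATCT. The runs read 5′ to 3′ on the plus strand, with matches to the ETS motif in capitals. The Egfl7 window is chr2:26580833-26581082 and the Mrc1 window is chr2:14229164-14229413.
Egfl7: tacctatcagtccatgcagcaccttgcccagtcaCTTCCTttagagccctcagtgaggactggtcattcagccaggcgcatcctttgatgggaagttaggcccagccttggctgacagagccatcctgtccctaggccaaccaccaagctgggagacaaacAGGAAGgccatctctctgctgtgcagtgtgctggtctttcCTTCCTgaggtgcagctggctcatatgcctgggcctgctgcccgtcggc
Mrc1: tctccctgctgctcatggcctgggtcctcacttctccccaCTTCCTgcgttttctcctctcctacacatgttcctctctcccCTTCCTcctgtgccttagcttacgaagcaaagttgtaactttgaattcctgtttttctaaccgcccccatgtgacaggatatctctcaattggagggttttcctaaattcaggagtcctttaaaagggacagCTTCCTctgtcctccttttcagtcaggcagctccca
Each of these windows holds 3 matches, and both were picked in part for holding several. The share of all promoters with 3 or more matches is not given here. AGGAAG was found in the promoters of 12 of the 19 matched genes (Aqp1, Clec4g, Egfl7, Emcn, Eng, Flt1, Mrc1, Nrp1, Robo4, Stab1, Stab2 and Tie1), and in 13 of their 21 listed promoters. Of all 32851 promoters of the same length, 29.5% hold it. AGATAA was found in 0 of the 19 genes, against 9.99% of all promoters. A match describes letters and does not show that a factor binds there.

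None of the 37 genes was called in any of the 3 comparisons with chow. Over all tested genes, 0.409% were called in CSO against chow, 2.64% in OO against chow and 0.835% in SFO against chow. Those 3 comparisons share the same 6 chow libraries. The estimates leaned below chow: 27 of 37 genes had a negative fold change in CSO, 29 in OO and 23 in SFO, against 52%, 45.6% and 48.9% of all tested genes. The median fold change of the endothelial genes was -0.21 in CSO, -0.22 in OO and -0.26 in SFO, and that of all tested genes was -0.02, 0.07 and 0.01. Without the 4 libraries with muscle transcripts the medians were -0.43, -0.21 and -0.20, with 26, 25 and 20 of 37 estimates negative. OO libraries held counts for 10615 to 11752 genes and had composition factors of 0.811 to 1.03, against 12044 to 12296 genes and 0.996 to 1.10 in chow, and the part of this in the OO estimates was not tested. Single estimates ran from -3.14 to 3.33 in CSO, from -2.44 to 1.02 in OO and from -3.43 to 3.80 in SFO. In bulk liver, fewer endothelial cells and less RNA per endothelial cell cannot be told apart.

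At an unadjusted p under 0.05 in edgeR's test the endothelial genes numbered 4 in CSO, 7 in OO and 8 in SFO, where the background shares are 5.32%, 16.1% and 7.74%. In CSO these were Stab2, Aqp1 and Icam2 below chow and Wnt2 above it. In OO all 7 lay below chow (Pecam1, Cdh5, Dnase1l3, Fcgr2b, Egfl7, Vwf and Nrp2), and 6.44% of all genes lay below chow at that p. In SFO, Tie1, Oit3, Dnase1l3, Mrc1 and Icam2 lay below chow and Wnt2, Gata4 and Nrp1 above it. DESeq2's Wald test called 1 endothelial gene in OO against chow (Fcgr2b) and 0 in the other 2 comparisons with chow. limma voom called 1 in CSO (Icam2) and 0 in OO and SFO. The shares of all genes that DESeq2 and limma voom called are not given here, so these counts have no background beside them. The authors' deposited tables gave an adjusted p under 0.05 to 0 of the 15 endothelial genes with an adjusted p in CSO, 1 of 37 in OO and 0 of 37 in SFO. Over all genes in the authors' deposited tables those shares are 1.71%, 5.32% and 1.55%.

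**Figure D1:**
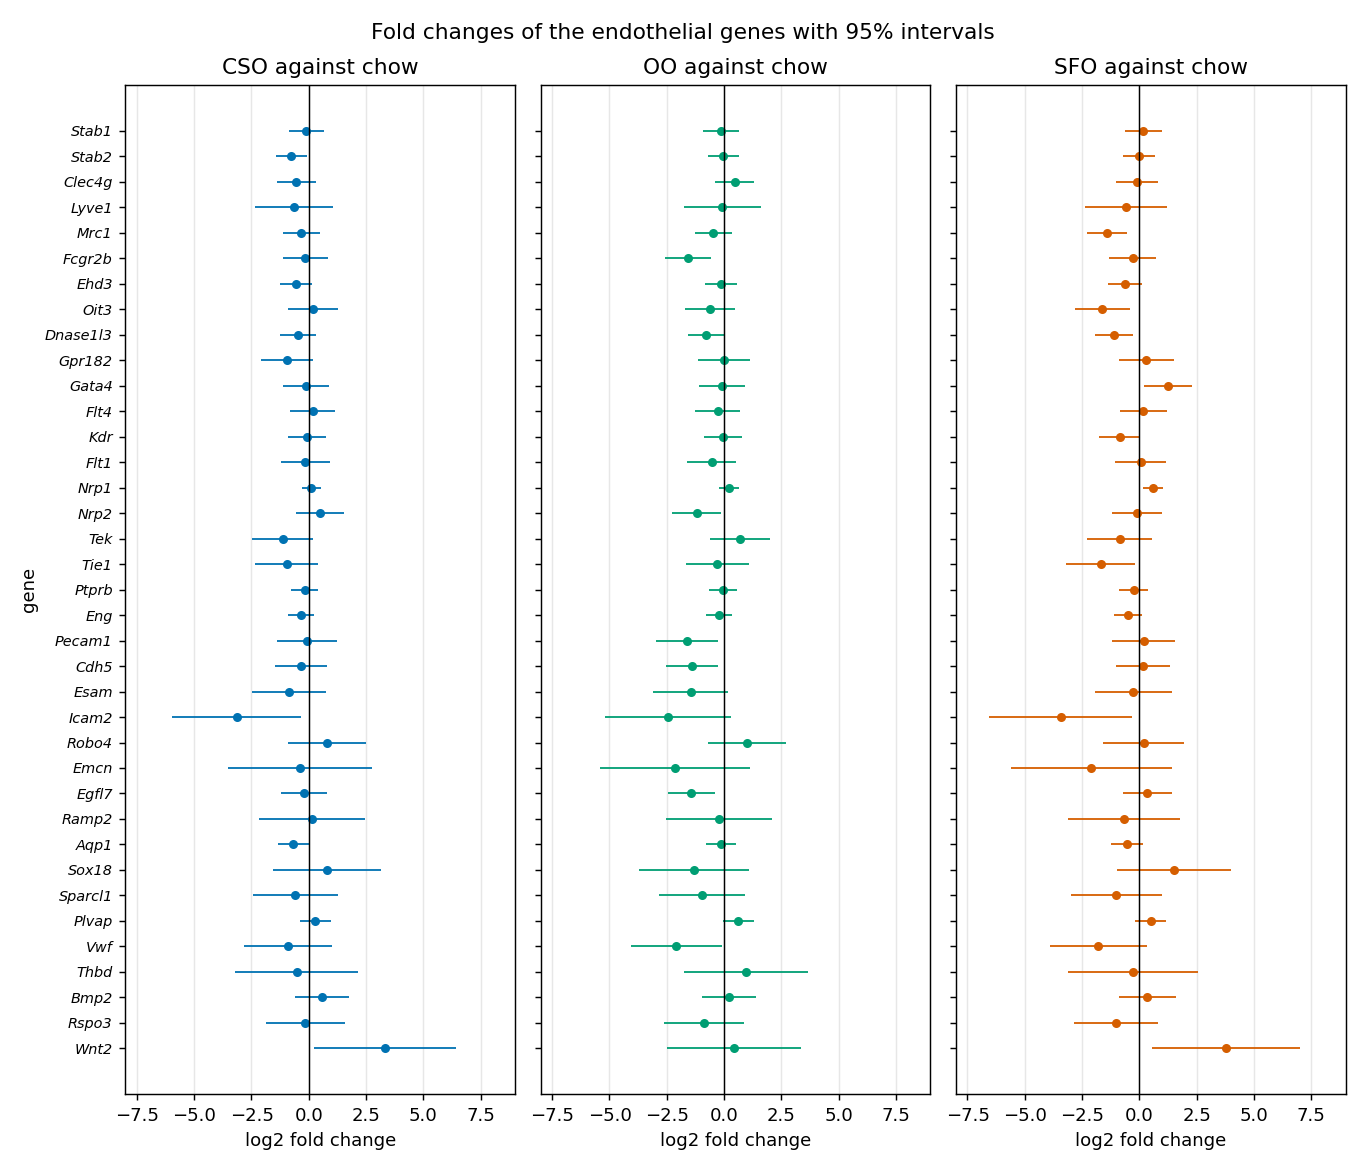
Fold change (log2, oil diet over chow) of each of the 37 endothelial genes in CSO, OO and SFO, with points for the estimate and bars for its 95% interval. Most points lie left of 0 (27, 29 and 23 of 37), and no gene was called in any panel.

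The precision differed widely between genes. The 95% interval stayed within a 2-fold change in either direction for 6 genes in CSO, 8 in OO and 4 in SFO against chow. Within a 4-fold change it stayed for 23, 20 and 22 of the 37 genes. For the remaining genes a change of more than 4-fold was not excluded at this depth and number of libraries.

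The sinusoidal endocytic receptors are Stab1, Stab2, Clec4g, Lyve1, Mrc1 and Fcgr2b. All 6 estimates were negative in CSO against chow, and 5 of 6 were negative in OO and in SFO. Their summed level was 205 ± 16.4 CPM in chow (SD, n = 6), 156 ± 33.6 in CSO, 185 ± 111 in OO and 173 ± 48.0 in SFO. Stab1 (stabilin-1, a relative of Stab2) averaged 42.3 ± 9.77, 39.5 ± 17.4, 38.9 ± 29.4 and 47.7 ± 18.0 CPM in chow, CSO, OO and SFO. Clec4g, a lectin of sinusoidal cells, averaged 33.3 ± 14.6, 22.8 ± 8.46, 45.9 ± 40.6 and 31.1 ± 12.9 CPM, and Lyve1, a hyaluronan receptor shared with lymphatic vessels, 9.48 ± 5.98, 6.07 ± 3.87, 9.01 ± 14.3 and 6.33 ± 6.42 CPM. For the sum, the chow libraries were close together and the OO libraries ran from 55.4 to 352 CPM.

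Stab2 encodes stabilin-2, a scavenger receptor for hyaluronan. Stab2 measured 25.2 CPM at the lowest, 59.4 at the median and 63.9 at the highest in chow. The corresponding CSO levels were 12.9, 31.2 and 43.1 CPM, and the OO levels were 17.7, 59.8 and 73.6 CPM. The SFO libraries gave 59.8, 31.3, 26.8, 69.0 and 70.9 CPM. CSO had the lowest median, but its range overlapped every other group. The log2 fold change of Stab2 in CSO against chow was -0.76 ± 0.34 (SE), with an adjusted p of 0.836 in edgeR's test. Against chow, Stab2 was at -0.03 in OO and -0.01 in SFO.

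Fcgr2b encodes the low-affinity inhibitory Fc receptor for immunoglobulin G, through which sinusoidal cells clear small immune complexes. B cells and macrophages also make it. Fcgr2b measured 17.3, 22.4 and 38.7 CPM (lowest, median and highest) in chow, and 8.52, 21.7 and 33.8 CPM in CSO. In OO the values were 3.77, 6.10 and 17.7 CPM, and the SFO libraries gave 6.47, 34.8, 5.65, 20.8 and 33.0 CPM. Only 1 OO library, OO 2, reached the lowest chow value. The log2 fold change in OO against chow was -1.57 ± 0.49 (SE; 95% interval -2.57 to -0.58), and edgeR's adjusted p of 0.0676 missed the threshold. Without OO 2 the adjusted p was 0.0298. The other 11 of 12 fits without 1 library did not call Fcgr2b, with an adjusted p of up to 0.164. Over all alternatives its adjusted p reached 0.504. In the authors' deposited table Fcgr2b stood at -1.58 with an adjusted p of 0.0219. In CSO against OO it was 1.43 ± 0.49 higher in CSO with an adjusted p of 0.133 in edgeR's test.

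Mrc1 encodes the mannose receptor, which takes up glycoproteins and collagen fragments in sinusoidal cells and macrophages. Mrc1 measured 26.0, 43.6 and 58.6 CPM in chow, 14.4, 36.7 and 48.3 CPM in CSO and 8.58, 20.7 and 78.3 CPM in OO (lowest, median and highest). Mrc1 in the SFO libraries measured 17.2, 7.90, 20.2, 19.0 and 18.2 CPM. Every SFO library lay below every chow library. Mrc1 was the only one of the 37 genes whose SFO and chow ranges did not overlap, while 1.59% of all tested genes had this property. In SFO against chow the log2 fold change of Mrc1 was -1.40 ± 0.43 (SE; 95% interval -2.27 to -0.53), with an adjusted p of 0.157 in edgeR's test. In a fit to the chow and SFO libraries alone it was called, with an adjusted p of 0.0371, while over all alternatives the adjusted p reached 0.513 and none of the 11 fits without 1 library called it. Of the 12 Kupffer cell and macrophage genes, which do not include Mrc1, 8 had estimates above chow in SFO, with a median of 0.12, and they summed to 117 to 321 CPM in chow and 120 to 314 in SFO. The part of macrophages in the Mrc1 values was not tested.

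Of the other sinusoidal genes, Ehd3, Oit3, Dnase1l3, Gpr182, Gata4 and Flt4, estimates were negative against chow for 4 of 6 in CSO, 6 in OO and 3 in SFO. Ehd3 encodes an endocytic recycling protein. Its levels were 24.2, 47.9 and 70.5 CPM in chow, 20.3, 32.7 and 49.2 in CSO and 12.6, 44.7 and 66.1 in OO (lowest, median and highest), and 42.6, 50.01, 22.7, 24.1 and 18.6 CPM in the SFO libraries. All 4 groups overlapped.

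Oit3 encodes a secreted protein with a zona pellucida domain. Oit3 measured 6.91, 16.9 and 25.9 CPM in chow, 6.20, 18.2 and 34.6 in CSO and 4.63, 7.87 and 19.8 in OO (lowest, median and highest). The SFO libraries gave 6.67, 1.91, 8.38, 5.91 and 3.98 CPM, and SFO 3 alone lay above the lowest chow library. The log2 fold change was -1.61 ± 0.60 in SFO against chow and 1.80 ± 0.60 in CSO against SFO (SE), with adjusted p of 0.355 and 0.278 in edgeR's test. In CSO against the average of OO and SFO it was 1.30 with an adjusted p of 0.254.

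Gata4 encodes a GATA transcription factor needed for the sinusoidal form of liver endothelium, and is also made by stellate cells. Gata4 measured 7.26, 14.1 and 32.0 CPM in chow, 6.57, 14.48 and 26.4 in CSO and 2.67, 16.5 and 28.2 in OO (lowest, median and highest). Gata4 in the SFO libraries measured 27.5, 40.8, 11.5, 61.5 and 54.8 CPM. SFO 2, 5 and 6 lay above every library of the other diets, SFO 1 and SFO 3 within their ranges. On the log2 scale Gata4 stood at 1.24 ± 0.52 in SFO against chow and -1.37 ± 0.52 in CSO against SFO (SE), with adjusted p of 0.470 and 0.392 in edgeR's test. Of the 12 stellate cell and fibroblast genes, 7 had estimates above chow in SFO, with a median of 0.05 and a range from -2.27 (Des) to 1.46 (Col1a1). They summed to 335 to 540 CPM in chow and 248 to 537 in SFO, and Des, a gene also made by muscle, reached 142 CPM in Chow 4. The part of stellate cells in the Gata4 values was not tested.

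Dnase1l3, a secreted nuclease that degrades DNA in chromatin, had unadjusted p under 0.05 below chow in 2 diets. Its mean level was 37.7 ± 14.3 CPM in chow, 27.4 ± 10.3 in CSO, 21.8 ± 8.12 in OO and 17.6 ± 8.35 in SFO. Dnase1l3 fold changes against chow were -0.46, -0.79 and -1.10, with adjusted p of 0.308 in OO and 0.368 in SFO in edgeR's test.

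**Figure D2:**
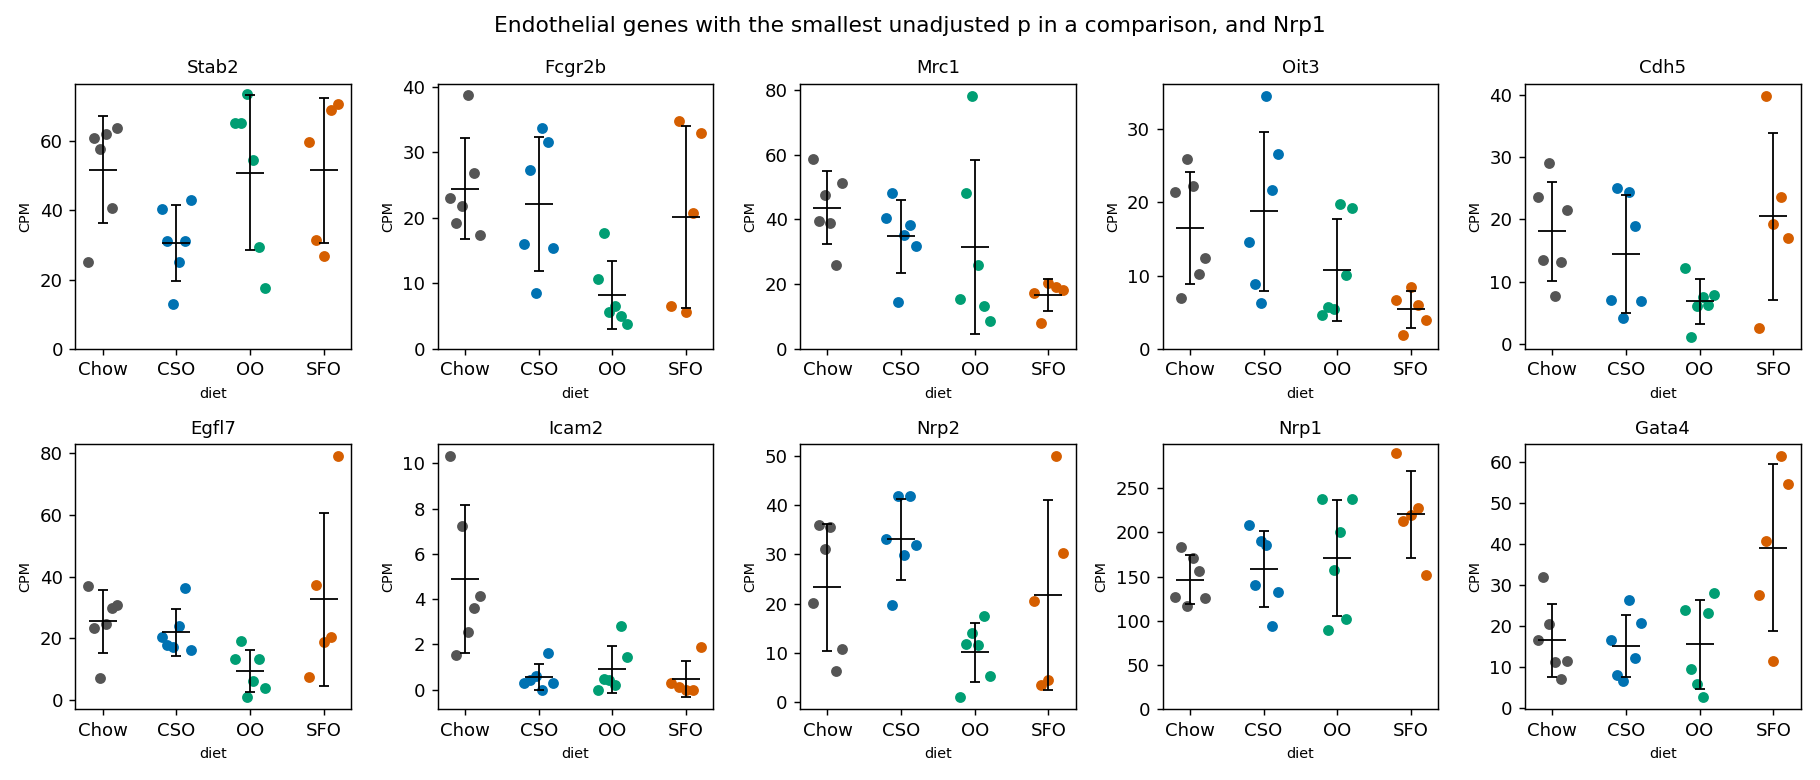
Level (CPM) of 10 endothelial genes in each library by diet, with points for libraries and a bar for the mean ± SD (n = 6, 6, 6 and 5). The 5 SFO libraries lie between 7.90 and 20.2 CPM for Mrc1, below the 6 chow libraries, and the OO libraries of Fcgr2b lie between 3.77 and 17.7 CPM.

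The VEGF receptors Kdr, Flt1 and Flt4 (also counted among the sinusoidal genes) and their co-receptors Nrp1 and Nrp2 summed to 246 ± 29.0 CPM in chow, 267 ± 31.4 in CSO, 248 ± 74.2 in OO and 302 ± 45.2 in SFO. Nrp1, which binds VEGF and semaphorins and is not restricted to endothelium, supplied much of that sum. Nrp1 measured 117, 142 and 183 CPM in chow, 94.3, 163 and 209 in CSO and 90.03, 179 and 238 in OO (lowest, median and highest). Nrp1 in the SFO libraries measured 289, 212, 219, 228 and 152 CPM. All SFO libraries but SFO 6 lay above the highest chow library. In SFO against chow the log2 fold change of Nrp1 was 0.59 ± 0.22 (SE; 95% interval 0.14 to 1.03), with an adjusted p of 0.368 in edgeR's test.

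Nrp2 is known from veins and lymphatic vessels, where it acts with Flt4. Nrp2 measured 6.32, 25.6 and 35.9 CPM in chow and 19.8, 32.5 and 41.9 CPM in CSO (lowest, median and highest). In OO it measured 1.01, 11.7 and 17.4 CPM, and the SFO libraries gave 20.6, 3.59, 4.46, 49.8 and 30.3 CPM. Every CSO library lay above every OO library, which held for 1 of the 37 endothelial genes and, in either direction, for 1.44% of all genes. Nrp2 was 1.70 ± 0.54 higher on the log2 scale in CSO than in OO (SE; 95% interval 0.61 to 2.79), with an adjusted p of 0.101 in edgeR's test. In CSO against the average of OO and SFO the difference was 1.15 with an adjusted p of 0.321. Kdr, the main signalling receptor for VEGF, averaged 42.5 ± 8.80 CPM in chow, 40.6 ± 20.3 in CSO, 41.6 ± 35.5 in OO and 23.4 ± 10.8 in SFO.

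Tek and Tie1 are the angiopoietin receptor and its partner, Ptprb is the phosphatase that holds Tek in check, and Eng is a co-receptor for bone morphogenetic protein (BMP) 9 and 10. All 4 estimates were negative in CSO and in SFO against chow, and 3 of 4 in OO. Eng measured 61.6, 79.4 and 89.7 CPM in chow, 43.3, 55.1 and 99.4 in CSO and 32.5, 74.9 and 91.6 in OO (lowest, median and highest). The SFO libraries gave 32.3, 47.1, 33.8, 59.9 and 109 CPM. Chow libraries were the most tightly grouped for Eng. In SFO, 4 of 5 libraries lay below every chow library and SFO 6 lay above them all. Tek averaged 11.1 ± 4.52 CPM in chow, 5.03 ± 2.77 in CSO, 17.9 ± 15.6 in OO and 6.13 ± 4.56 in SFO. In CSO against OO, Tek was at -1.83 with an adjusted p of 0.163 in edgeR's test.

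The group labelled junction and surface genes holds Pecam1, Cdh5, Esam, Icam2, Robo4, Emcn, Egfl7, Ramp2, Aqp1, Sox18 and Sparcl1. The label is loose, as Egfl7 and Sparcl1 are secreted and Sox18 is a transcription factor. Of these 11, estimates against chow were negative for 8 in CSO, 10 in OO and 6 in SFO. Their median fold change was -0.33 in CSO, -1.40 in OO and -0.26 in SFO. Their summed level was 158 ± 30.0 CPM in chow, 121 ± 42.2 in CSO, 101 ± 42.2 in OO and 143 ± 48.0 in SFO, and the OO libraries, from 49.7 to 173 CPM, overlapped the chow range of 123 to 192.

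Cdh5 encodes VE-cadherin, the adhesion protein of endothelial junctions. Cdh5 measured 7.70, 17.6 and 29.1 CPM in chow, 4.14, 12.997 and 25.0 in CSO and 1.18, 6.87 and 12.2 in OO (lowest, median and highest). Cdh5 in the SFO libraries measured 2.55, 39.8, 19.3, 23.7 and 17.1 CPM. OO lay low as a group, while SFO spanned the lowest and the highest values apart from OO 2. On the log2 scale Cdh5 stood at -1.40 ± 0.57 in OO against chow and 1.58 ± 0.59 in SFO against OO (SE), with adjusted p of 0.183 and 0.173 in edgeR's test.

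Egfl7 encodes a secreted protein that endothelial cells deposit in the vessel wall. Egfl7 measured 7.21, 27.3 and 36.9 CPM in chow, 16.1, 19.2 and 36.4 in CSO and 0.831, 9.75 and 19.1 in OO (lowest, median and highest). Egfl7 in the SFO libraries measured 7.55, 37.2, 18.9, 20.5 and 79.0 CPM. Chow 3, at 7.21 CPM, was the only chow library that lay within the OO range. On the log2 scale Egfl7 stood at -1.43 ± 0.51 in OO against chow and 1.78 ± 0.54 in SFO against OO (SE), with adjusted p of 0.117 and 0.0814 in edgeR's test. DESeq2's test called the second of these, with an adjusted p of 0.0334, while the adjusted p reached 0.590 over all alternatives and none of the 11 fits without 1 library called it.

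Icam2 encodes an adhesion molecule for leukocytes and was read from few counts, 279 in all chow libraries, 39 in CSO, 45 in OO and 14 in SFO. Icam2 measured 1.53, 3.86 and 10.3 CPM in chow, 0, 0.363 and 1.63 in CSO and 0, 0.445 and 2.79 in OO (lowest, median and highest). Icam2 in the SFO libraries measured 0.294, 0.120, 0, 0 and 1.90 CPM. Medians in the oil diets were all below the lowest chow library, but 1 library in each oil diet reached above it. The log2 fold changes against chow were -3.14 ± 1.40 in CSO, -2.44 ± 1.36 in OO and -3.43 ± 1.54 in SFO (SE), with adjusted p of 0.836, 0.385 and 0.545 in edgeR's test. limma voom gave Icam2 an adjusted p of 0.0217 in CSO, the lowest of the alternatives, and the others ran from 0.124 to 1.

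Aqp1 encodes a water channel of endothelium and of bile duct cells. Aqp1 measured 44.2, 61.2 and 81.2 CPM in chow, 31.8, 40.2 and 46.0 in CSO and 30.7, 49.96 and 127 in OO (lowest, median and highest). Aqp1 in the SFO libraries measured 9.41, 55.4, 35.4, 53.8 and 59.7 CPM. Only CSO 5 reached the lowest chow value. In CSO against chow the log2 fold change of Aqp1 was -0.67 ± 0.33 (SE), with an adjusted p of 0.936 in edgeR's test. Of 7 bile duct cell genes 4 were tested, and in CSO against chow 2 estimates were above 0 (Spp1 0.33 and Epcam 0.07) and 2 below (Sox9 -1.02 and Krt19 -0.80), with a median of -0.37. They summed to 37.5 to 80.4 CPM in chow and 30.8 to 67.2 in CSO, mostly from Spp1, and the part of bile duct cells in the Aqp1 values was not tested. Pecam1, another adhesion protein of endothelial junctions, averaged 15.3 ± 2.69 CPM in chow and 4.98 ± 5.49 in OO, where OO 6 alone, at 15.7 CPM, reached chow values.

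Among vessel and coagulation genes, Plvap forms the diaphragms of fenestrae and caveolae, Vwf encodes von Willebrand factor of larger vessels and Thbd encodes thrombomodulin. Plvap measured 14.97, 37.4 and 49.9 CPM in chow, 20.7, 37.8 and 83.0 in CSO and 32.9, 52.8 and 82.9 in OO (lowest, median and highest). The SFO libraries gave 43.2, 57.0, 48.6, 39.0 and 58.8 CPM. Plvap estimates were above chow in all 3 oil diets (0.29, 0.62 and 0.49), with ranges that overlapped. Vwf averaged 11.2 ± 6.27 CPM in chow, 6.06 ± 4.06 in CSO, 2.64 ± 3.999 in OO and 3.24 ± 5.81 in SFO. In OO against chow Vwf was at -2.08 ± 0.99 with an adjusted p of 0.282 in edgeR's test.

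The angiocrine ligands, signals from endothelium to its neighbours, are Bmp2, Rspo3 and Wnt2. Bmp2 acts on hepatocytes to raise hepcidin, and Rspo3 and Wnt2 sustain Wnt signalling around the central vein. Bmp2 measured 5.72, 8.65 and 17.0 CPM in chow, 8.56, 13.1 and 20.0 in CSO and 1.43, 9.08 and 26.1 in OO (lowest, median and highest), and 2.16, 14.6, 16.4, 9.72 and 15.9 CPM in the SFO libraries. All groups overlapped. Wnt2 was near the limit of detection, with 17 counts over the 6 chow libraries, 209 in CSO, 21 in OO and 181 in SFO. Of the SFO counts of Wnt2, 152 came from SFO 5. Against chow the log2 fold change of Wnt2 was 3.33 ± 1.55 in CSO and 3.80 ± 1.61 in SFO (SE), with adjusted p of 0.893 and 0.486 in edgeR's test.

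**Figure D3:**
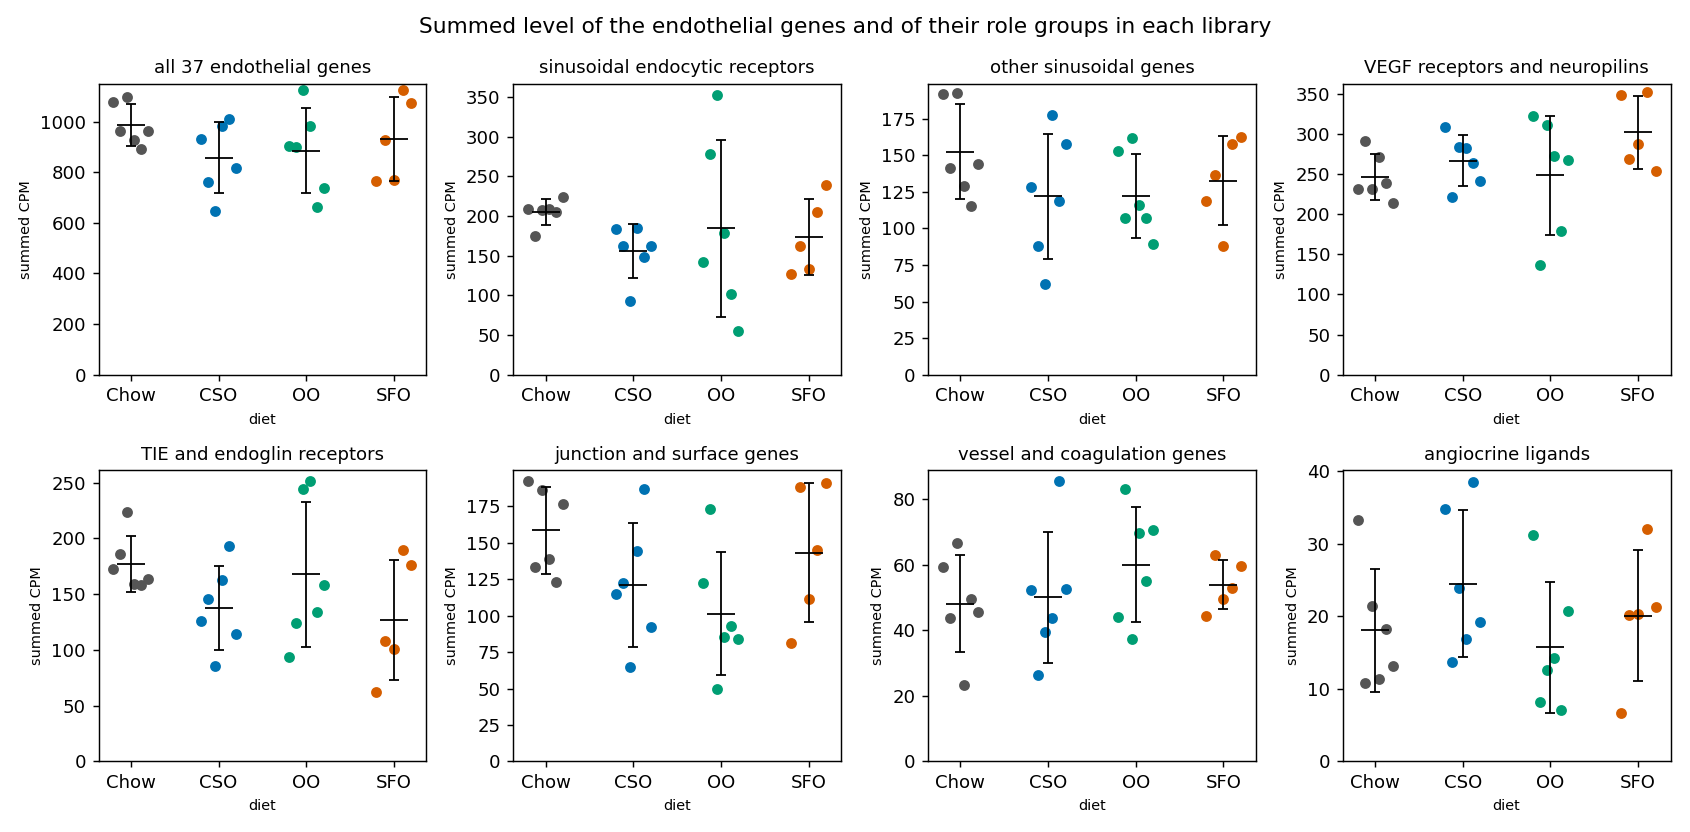
Summed level (CPM) of all 37 endothelial genes and of the 7 role groups in each library by diet, with points for libraries and a bar for the mean ± SD. The sum of all 37 runs from 892 to 1099 CPM in chow and from 646 to 1010 in CSO, so the ranges overlap.

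Summed over all 37 genes, the endothelial level was 987 ± 83.2 CPM in chow, 858 ± 142 in CSO, 885 ± 167 in OO and 932 ± 167 in SFO (SD, n = 6, 6, 6 and 5). The ranges were 892 to 1099, 646 to 1010, 661 to 1126 and 766 to 1125 CPM. Each oil diet held libraries inside the chow range. Nrp1, with a mean of 172 CPM, was the largest single part of the sum. Its estimates against chow were 0.11 in CSO, 0.22 in OO and 0.59 in SFO, while most of the 37 estimates were negative.

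Between the oil diets, again 0 of 37 endothelial genes were called by edgeR's test. Over all genes 0.727% were called in CSO against the average of OO and SFO, 1.09% in CSO against OO, 0.493% in CSO against SFO and 1.06% in SFO against OO. At an unadjusted p under 0.05 the endothelial genes numbered 4, 7, 6 and 9, where the background shares are 10.1%, 14.7%, 7.69% and 15.3%. In CSO against OO, Pecam1, Fcgr2b, Egfl7 and Nrp2 were higher in CSO at that p and Stab2, Clec4g and Tek lower. In CSO against SFO, Oit3 and Mrc1 were higher in CSO, and Stab2, Gpr182, Gata4 and Nrp1 lower. In SFO against OO, Pecam1, Cdh5, Fcgr2b, Egfl7, Wnt2, Gata4 and Sox18 were higher in SFO, and Tek and Mrc1 lower. DESeq2 called Egfl7 in SFO against OO and none in the other comparisons of oils. limma voom called Nrp2 in CSO against the average of OO and SFO. For both tests the share of all genes called is not given here. Estimates were negative for 14, 17, 19 and 19 of the 37 genes, against 54%, 55.4%, 52.3% and 52.6% of all genes. The median fold changes were 0.19, 0.14, -0.01 and -0.04, against -0.04, -0.08, -0.03 and -0.04 over all genes.

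**Figure D4:**
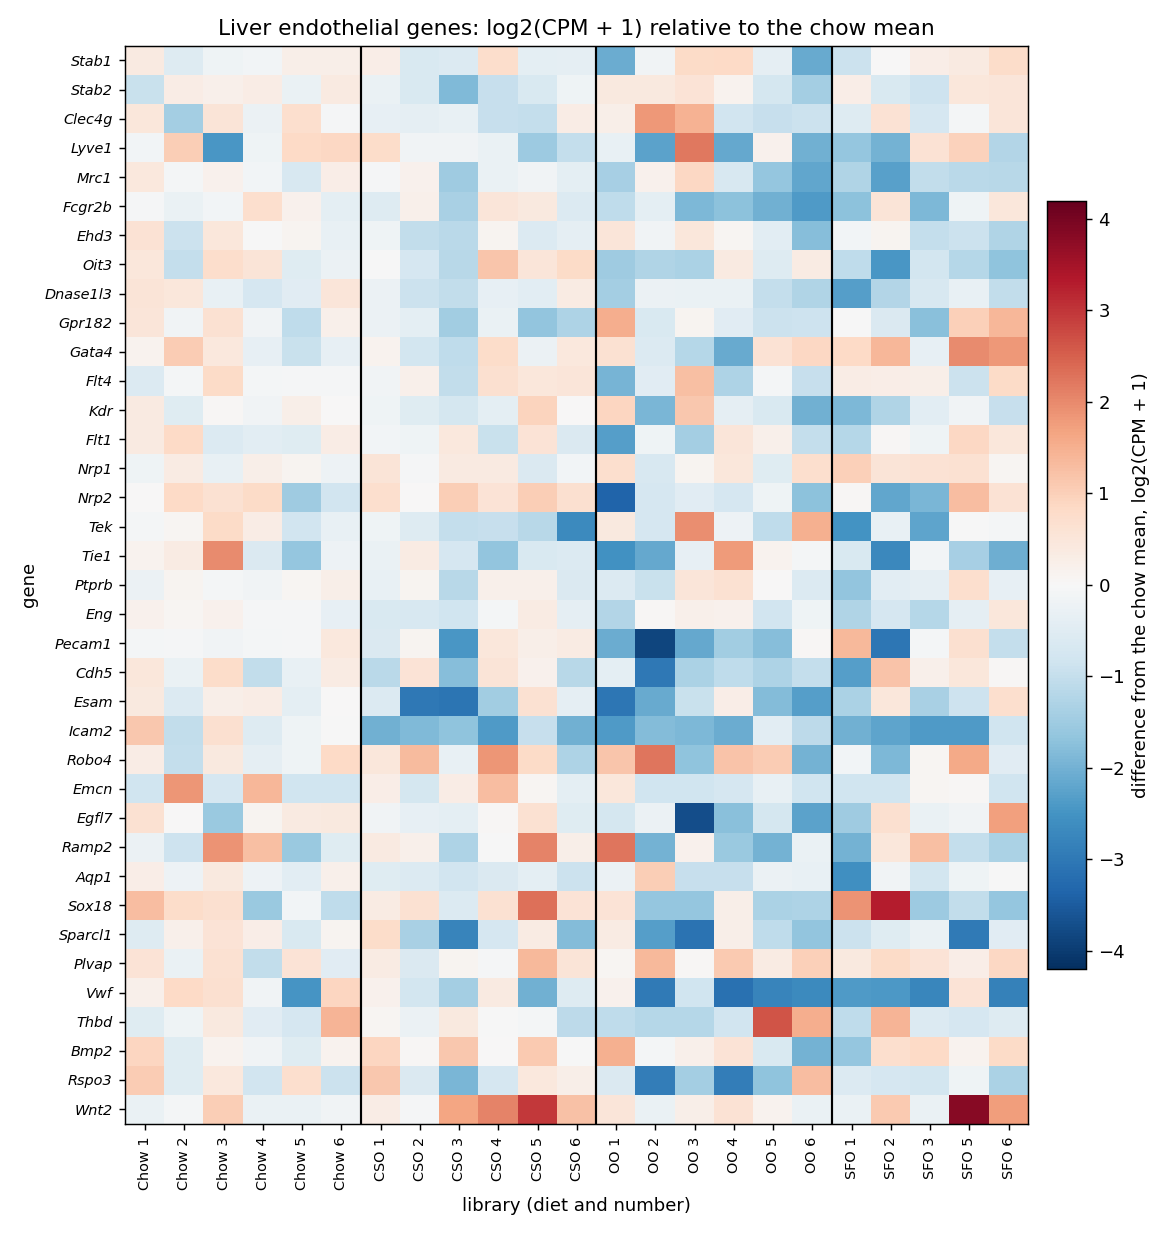
Level of each of the 37 endothelial genes in each of the 23 libraries, as log2(CPM + 1) minus the gene's mean over the chow libraries, with the colour scale from below chow to above it. Colours differ more within the OO and SFO blocks than within chow, and no diet block has a single colour throughout.

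The endothelial genes varied more among libraries of OO and SFO than among those of chow. The median SD of log2 CPM over the 37 genes was 0.66 in chow, 0.73 in CSO, 1.28 in OO and 1.19 in SFO, and that of all tested genes was 0.64, 0.59, 1.09 and 0.83. A larger SD than in chow was seen for 23 of 37 genes in CSO, 33 in OO and 32 in SFO, against 43.2%, 80.5% and 67.3% of all genes. Within diets, the variance of the endothelial genes between libraries was 11.6 to 125 times that of counting noise alone, with a median of 53.4. Ptprb was the least variable gene in chow (SD 0.18) and Sox18 the most variable in SFO (SD 3.22). Emcn was at 0 counts in 9 of the 23 libraries, Wnt2 in 7, Icam2 in 4, Sox18 and Ramp2 in 3 each, Thbd in 2 and Sparcl1 in 1. The other 30 genes, among them the sinusoidal markers Stab1, Stab2, Clec4g and Lyve1, had counts in every library.

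Few pairs of the endothelial genes were closely correlated. Across the 23 libraries, after the mean of each diet was removed, the median Pearson r over the 666 pairs of endothelial genes was 0.08, and that between endothelial and other genes was -0.003. Of the endothelial pairs, 24 (3.6%) had r over 0.5, against 2.08% of pairs with other genes. The pairs share libraries and scaling factors, so these values are a description. The highest was Gpr182 with Vwf, at 0.68, followed by Eng with Esam at 0.67 and Pecam1 with Oit3 at 0.66. The number of endothelial genes above their own median over all libraries ran from 15 to 30 of 37 in chow, 9 to 24 in CSO, 9 to 18 in OO and 10 to 23 in SFO. The share of all genes above their own median was 48.2% to 50.2% in chow and 48.3% to 51% in CSO libraries. In OO it was 41.1% to 46.8%, and in SFO 45.8% to 49.8%.

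A list of 38 VEGF, angiopoietin, BMP, Notch and Wnt components and related genes includes targets made by hepatocytes, such as the hepcidin gene Hamp. Of these 38 genes, 35 were tested. In OO against chow 1 rose and 0 fell, in CSO against OO and against the average of OO and SFO 1 fell and 0 rose, and the other comparisons had none. These single calls of 35 stand beside 2.64%, 1.09% and 0.727% of all genes called in those comparisons. All 3 calls are Id2, a target of BMP signalling that hepatocytes also make. Other BMP targets of the list went both ways in OO against chow, and none was called. Id1 and Id3 stood at 0.72 and 0.51, and Smad6, Smad7 and Hamp at -0.28, -0.95 and -0.53. Id2 was at 109, 133 and 158 CPM in chow, 69.8, 127 and 157 in CSO and 128, 235 and 262 in OO (lowest, median and highest). In SFO against chow Id2 stood at 0.42, with an adjusted p of 0.676 in edgeR's test. Id2 rose by 0.73 ± 0.21 in OO against chow (adjusted p 0.0428), fell by 0.89 in CSO against OO (adjusted p 0.0193) and fell by 0.73 in CSO against the average of OO and SFO (adjusted p 0.0449) in edgeR's test. The call against chow was lost when any of 11 of the 12 libraries was left out (all but OO 5), with an adjusted p of at most 0.0937. In CSO against OO it was lost without CSO 3 (0.0526) or CSO 4 (0.0769), and in CSO against the average of OO and SFO it was lost in 9 of 17 such fits. Without the 4 libraries with muscle transcripts the 3 adjusted p were 0.320, 0.0568 and 0.109.

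Of 30 further endothelial genes, 28 were tested, and 2 fell in OO against chow (2.64% of all genes were called) while none passed in the other 6 comparisons. Ushbp1 averaged 18.1 ± 8.11 CPM in chow and 3.12 ± 2.79 in OO and fell by 2.53 on the log2 scale (SE 0.74, adjusted p 0.0490 in edgeR's test). Galnt18 had 305 counts over the chow libraries, 302 of them in the 3 with muscle transcripts and 3 in the other 3, and 1 over the OO libraries. This is a ratio of 250 over all 6 (95% interval 44.4 to 9887, counting error only), with an adjusted p of 0.0334 in edgeR's test and 0.00362 (DESeq2) to 0.433 (limma voom) over the alternatives. Both calls depended on which libraries were kept. Ushbp1 was called in 2 of the 12 fits that left out 1 library and Galnt18 in 5, and without the 4 libraries with muscle transcripts Ushbp1 had an adjusted p of 0.445 and Galnt18 was removed by the filter on low counts. The median fold change of the 28 genes was -0.45 in CSO, -0.91 in OO and -0.28 in SFO against chow.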

How the data were processed

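Raw gene counts of 23 libraries were deposited by the authors, with 1 table for each oil diet set against chow. Per the file headers, the latter hold log2 fold changes with log2 standard errors, a mean normalized signal, a test statistic (a score) and p-values, raw and adjusted. Fold changes from them were multiplied by -1, so a positive value is higher in the oil. The submitters' processing notes name Trimmomatic, STAR 2.7.1a, HTSeq 0.9.1, DESeq2, DESeq and the mm39 build. No strand setting was found in the labels or headers, so reads of a gene and of an overlapping or antisense gene cannot be told apart. No molecular identifiers are mentioned in the labels, so intervals from counts cover counting error only. The smallest total count of a gene in the table is 51.

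edgeR 4.0.16 in R 4.3.3 was used for the main analysis (filterByExpr, TMM scaling, robust quasi-likelihood fit with the legacy option, diet as the only term, all 23 libraries). DESeq2 1.42.0 and limma 3.58.1 served as alternatives. Summaries and plots were made in Python 3.11.15 (pandas 2.3.3, matplotlib 3.10.9). The filter kept 11971 genes with 99.9% of the counts. Adjusted p is Benjamini-Hochberg over those genes, with a threshold of 0.05, in each of 7 comparisons. Fitted fold changes of single genes are edgeR's. Log2 CPM used a prior count of 2, and the map of genes by library a pseudocount of 1. The fit was tested on simulated counts. Libraries of a diet differed by 26.0 to 140 times sampling noise (chi-square per gene, 55 pairs), so no pair differed by sampling noise alone. Whether each library came from a different mouse cannot be read from this.

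The endothelial genes and all other lists were chosen with earlier results of these data known, so lists are described and not tested. Values were given for called genes, for the 2 smallest p-values of each comparison without a call, for the gene of highest mean CPM in each of 7 role groups, and for up to 4 called genes of the related lists. Stab1, Clec4g, Lyve1, Dnase1l3, Kdr, Tek, Pecam1, Vwf and Wnt2 were added after their values were seen. Alternatives were other scaling, filters and tests, the diets of a comparison alone, a replicate block, leaving out libraries and, chosen after seeing the data, the quasi-likelihood fit without the legacy option.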

Additional observations from a re-analysis of the deposited data

Results flagged for a closer look

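For the named endothelial genes and their sum, each diet was examined for a single library far from the rest (a gap to the nearest other library above Dixon's 95% critical value). Of 64 groups (15 named genes and the endothelial sum, in 4 diets), 5 held one. For normally distributed values chance alone gives about 5% of groups, but CPM values near 0, as for Icam2, need not be so distributed. Aqp1 stood at 127 CPM in OO 2, where the other OO libraries ran from 30.7 to 51.0 CPM. Bmp2 stood at 17.0 CPM in Chow 1, against 5.72 to 9.78 CPM in the other chow libraries. Icam2 stood at 1.63 CPM in CSO 5, against 0 to 0.608 CPM in the other CSO libraries, and at 1.90 CPM in SFO 6, against 0 to 0.294 CPM in the other SFO libraries. Mrc1 stood at 7.90 CPM in SFO 2, below the 17.2 to 20.2 CPM of the other SFO libraries.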

How the results depend on the processing

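Of 312 recomputed counts and medians of the endothelial genes, 10 moved, where a count had to change by over 1.5 times and a median by over 0.42, the SD of the median level between libraries of a diet. That tolerance is wider than any of the medians reported. The number of called endothelial genes became 1 in place of 0 in CSO against chow with limma voom (Icam2), in CSO against OO without the legacy option (Nrp2, chosen after seeing the data), in CSO against the average of OO and SFO with limma voom (Nrp2), in SFO against chow with only those diets (Mrc1) and in SFO against OO with DESeq2 (Egfl7). In OO against chow it became 1 (Fcgr2b) with library totals, with DESeq2, without OO 2 and without the legacy option, and the adjusted p of Fcgr2b ran from 0.0211 to 0.504 over its alternatives. With 1 library left out, the count was 0 to 1 in OO against chow and 0 to 0 in the other 6 comparisons. The share of all genes called under each alternative is not given here, so these counts have no background. The median in OO against chow was -0.66 with limma voom, where that of all genes was -0.12. Library totals without a composition factor moved the median of all genes in OO against chow from 0.07 to -0.12, and that of the endothelial genes from -0.22 to -0.42. With 1 library left out, the medians against chow ran from -0.38 to -0.15 in CSO, from -0.40 to -0.16 in OO and from -0.45 to -0.05 in SFO. The medians between oils ran from 0.02 to 0.27 (CSO against that average), -0.01 to 0.32 (CSO against OO), -0.12 to 0.11 (CSO against SFO) and -0.24 to 0.10 (SFO against OO), and the last 3 changed sign. Over all alternatives the medians reached -0.54 in SFO against chow and 0.32 in CSO against SFO (both limma voom), and 0.33 in SFO against OO (replicate block). They also reached 0.44 in CSO against OO and 0.33 in CSO against the average of OO and SFO. The cause was not tested. Of 425 recomputed fold changes of named genes, 0 reversed, 9 passed the threshold that had not before, and 56, all of Id2, Ushbp1 and Galnt18, no longer passed it.

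With the replicate number as a block, 0 endothelial genes were called in all 7 comparisons, and the medians against chow were -0.26, -0.44 and -0.34. The numbers were not taken to pair the libraries: of 33 same-numbered pairs, 0 had a correlation of deviations over 0.1 (-0.10 to 0.03), and 0 of 23 libraries correlated best with their own number. The block ended the calls of Id2 in OO against chow (adjusted p 0.0556) and in CSO against the average of OO and SFO (0.0627) and of Galnt18 (0.132). Even for the low genes Emcn, Wnt2 and Icam2 the variance between libraries was 17.1, 37.01 and 11.6 times counting noise.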
